A study of Cavia porcellus with 10 samples.

Results

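Connexins are the membrane proteins of gap junctions. They assemble into hemichannels, the hemichannels of adjoining cells dock to each other, and ions and small messengers pass through the resulting channel from cell to cell. Different tissues use different connexins. Those of the GJB class are typical of epithelia, GJA4 and GJA5 are typical of vascular endothelium, GJC1 is found in smooth muscle and in vessel walls, and GJA1 is widespread, in smooth muscle, stromal cells and epithelia. In the uterus GJA1 is best known from the muscle of the body, where its gap junctions couple the cells that contract together in labor.

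The connexin genes described here were chosen by gene name from a list of 8, namely GJA1, GJA4, GJA5, GJB1, GJB2, GJB5, GJB6 and GJC1. Of these, 6 have a row among the 25028 genes of the deposited table, and GJA1 is written there as Gja1. GJB1 and GJB2 were not analysed here because no row carries their names, so that 2 of the 4 epithelial connexins of the list, GJB5 and GJB6, could be set against 4 muscle and vascular connexins. The grouping is a working one, since GJA1 is made by all of these tissues.

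The samples are cervices of Hartley guinea pigs, taken from the vaginal part to keep uterine muscle out. There were 3 non-pregnant females on the day after the membrane closing the vulva had disappeared, that is in estrus (NP), 3 females at mid-pregnancy (MT, 43.6 ± 0.5 days) and 4 in late pregnancy that were not in labor (LT, 65.2 ± 1.2 days). Pregnancies were dated from the size of the fetuses at harvest, and the labels name no treatment. For each animal the table holds reads per gene, from 18730665 to 27881572 in total, and the TPM value (transcripts per 1000000 transcripts) made from them, which corrects for gene length. The tissue held transcripts of all the cell types whose markers were examined, and no marker with a row was at 0 reads in all animals. In whole tissue, however, fewer cells of a type and less RNA per cell cannot be told apart.

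NP replicate 1 stood apart from the other NP animals. Its summed TPM of 8 squamous epithelium markers was 3951 against 1276 and 1170.5 in the other NP animals, and its summed TPM of 11 smooth muscle markers was 32991 against 11996 and 9471. GJA1, GJB6 and GJB5 were also highest in this animal among the NP animals, at 2.04, 3.19 and 1.90 times what the other NP animals had on average. Values without this animal are given beside the results that it moved most.

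GJA1 was the most abundant connexin in every animal, and it did not pass the test in any comparison of stages. The vascular connexins GJA4 and GJA5 were lower in LT than in NP, and so was GJC1, known from smooth muscle and vessel walls, by 2.87 to 3.41 times. GJB6, a connexin of stratified epithelium, was 1.97 times higher in LT than in NP, and 3.40 times higher than in the NP animals other than replicate 1. This rise passed the test in 14 of 19 alternative settings, but not without NP replicate 2 or without NP replicate 3. An exact permutation test of it gave P = 0.114. GJB5 did not pass the test in any comparison. The epithelial connexins thus made up a larger share of the connexin transcripts at each later stage, from a mean of 13.0% in NP to 24.9% in LT.

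**Figure D1:**
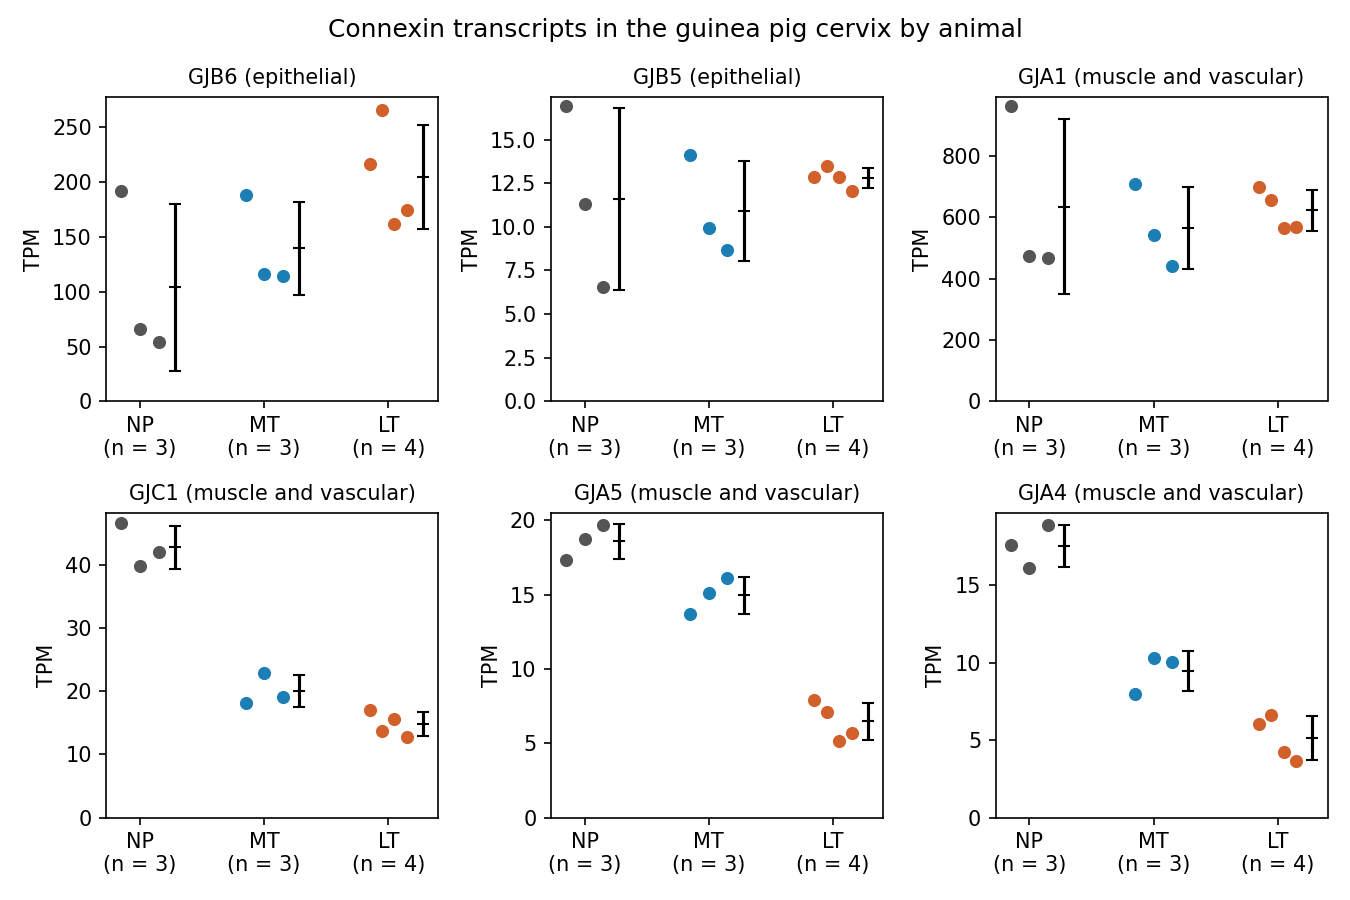
TPM of the 6 connexin genes (y axis, linear, from 0) in NP, MT and LT animals (x axis), with 1 point per animal and, beside the points, the mean with its SD. GJC1, GJA5 and GJA4 step down from stage to stage with little spread between animals, while GJB6, GJB5 and GJA1 spread widely in NP, with NP replicate 1 at 192, 16.9 and 964 TPM.

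The stages were compared by limma, fitted to log2(TPM + 1) of the 10 animals. The 12645 genes whose mean reached 3 TPM in 1 stage or more were tested, and P-values were adjusted over all of them by the Benjamini-Hochberg method. The 3 comparisons share animals and are not independent of each other. All 6 connexins passed this filter. Differences of means on this scale are given as log2FC, later minus earlier stage, on which the changes of weakly expressed genes come out too small, and a gene was called at an adjusted P under 0.05. The median of all tested genes was itself below 0, at -0.14 from NP to MT, -0.16 from MT to LT and -0.28 from NP to LT, so that changes stand against a shift of this size. A two-sided exact permutation test on the square root of TPM was run beside it for each connexin. Its smallest possible P is 0.1 with 3 animals against 3 and 0.0286 with 3 against 4, and its P-values, from 18 pairwise and 6 three-stage tests, were not adjusted.

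Of the 6 connexins, 2 were lower in MT than in NP with an adjusted P under 0.05, namely GJA4 and GJC1, and none was higher. Over all tested genes 12.2% were called lower and 6.27% higher. From MT to LT, 3 of the 6 were called lower, GJA4, GJA5 and GJC1, and none was higher, against 22.7% lower and 6.73% higher among all genes. From NP to LT the same 3 genes were called lower and GJB6 was called higher, against 41.9% of all genes called lower and 11.2% called higher. This background depended on the scaling. After median-ratio scaling 7.74% of all genes were called lower and 10.4% higher from NP to MT, 15.3% and 14.0% from MT to LT, and 25.0% and 24.7% from NP to LT. The same 4 connexins were called from NP to LT under both scalings, and from MT to LT GJC1 was not called after median-ratio scaling. In the TPM fit, with log2FC values of -1.62 for GJA4, -1.48 for GJC1 and -1.41 for GJA5, only 3.57%, 4.69% and 5.45% of all tested genes had a lower value. For GJB6, 3.18% of the genes had a higher one. The median log2FC of the epithelial pair was 0.30, 0.40 and 0.70 in the 3 comparisons, and that of the 4 muscle and vascular connexins was -0.56, -0.60 and -1.44.

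GJA4 forms channels between the endothelial cells of arteries and between these cells and the muscle cells around them. It was at 17.6, 16.1 and 18.9 TPM in the NP animals, at 7.98, 10.3 and 10.1 TPM in MT and at 6.04, 6.65, 4.22 and 3.68 TPM in LT. The stages did not overlap, with all MT animals below all NP animals and all LT animals below all MT animals. The mean fell from 17.5 ± 1.38 TPM (SD, n = 3) in NP to 9.46 ± 1.28 TPM (SD, n = 3) in MT, a log2FC of -0.83 (SE 0.20, adjusted P = 0.0172). It fell further to 5.15 ± 1.42 TPM (SD, n = 4) in LT, with a log2FC of -0.79 (SE 0.18, adjusted P = 0.0122). The permutation test of the F statistic over the 3 stages gave an exact P of 0.000476, the smallest that the 4200 assignments of the animals allow. The LT values rest on 88 to 171 reads per animal. Both steps were close to the limit. The adjusted P of the first was 0.054 without NP replicate 3 and 0.0504 without MT replicate 1, within a range from 0.0071 to 0.054 over the alternative settings. That of the second was 0.0525 without MT replicate 2, within a range from 0.00723 to 0.0605. The whole decline from NP to LT was called in all 19 alternatives.

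GJA5, which is also a connexin of arterial endothelium, was lower mainly after mid-pregnancy. The NP animals had 17.3, 18.8 and 19.7 TPM, the MT animals 13.7, 15.1 and 16.1 TPM and the LT animals 7.91, 7.09, 5.18 and 5.68 TPM. Again no animal of one stage reached the range of the next, but the first step was small. From 18.6 ± 1.19 TPM (SD, n = 3) in NP to 14.97 ± 1.24 TPM (SD, n = 3) in MT the log2FC was -0.30 (95% interval -0.63 to 0.04, adjusted P = 0.187), and none of the 19 alternatives called it. From MT to LT, at 6.47 ± 1.26 TPM (SD, n = 4), the log2FC was -1.11 (SE 0.14, adjusted P = 0.00182), and all 19 alternatives called it. All LT animals lay below all MT animals (exact permutation test, P = 0.0286), and the 3-stage permutation test again gave an exact P of 0.000476.

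GJC1 is a connexin of smooth muscle and of the developing vessel wall. In the order of the NP, MT and LT animals it was at 46.5, 39.8 and 41.9 TPM, then at 18.2, 22.9 and 19.0 TPM, and then at 17.0, 13.7, 15.5 and 12.7 TPM. Its larger step was from NP to MT. The mean went from 42.8 ± 3.45 TPM (SD, n = 3) in NP to 20.03 ± 2.53 TPM (SD, n = 3) in MT, a log2FC of -1.06 (SE 0.13, adjusted P = 0.00115), called in all 19 alternatives. It was at 14.8 ± 1.91 TPM (SD, n = 4) in LT, a log2FC of -0.42 from MT (adjusted P = 0.0295). This second step depended on the scaling. No LT animal reached the MT range, but on square-root TPM the exact permutation P was 0.0571, and after scaling the TPM values by their median ratio the log2FC was -0.26 with an adjusted P of 0.173. It was called in 10 of 19 alternatives, over which the adjusted P ranged from 0.0201 to 0.188, and it was lost without MT replicate 2 (0.125), MT replicate 3 (0.0566), LT replicate 2 (0.0717), LT replicate 3 (0.0523) or LT replicate 4 (0.0744).

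The animals of these 3 genes did not overlap between NP and MT or between MT and LT, each later stage being lower. This was so for 23.5% of all tested genes from NP to MT and for 35.5% from MT to LT. From NP to LT it was so for 40.6%.

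GJA1 had 964, 474 and 469 TPM in the NP animals, 709, 544 and 443 TPM in MT and 701, 656, 565 and 570.1 TPM in LT. The 3 ranges overlapped, and the NP range enclosed nearly all the others. The means were 636 ± 284 TPM (SD, n = 3), 565 ± 134 TPM (SD, n = 3) and 623 ± 66.5 TPM (SD, n = 4). From NP to LT the log2FC was 0.05 (95% interval -0.51 to 0.61, adjusted P = 0.877), and the 3-stage permutation test gave an exact P of 0.899. The direction depended on single animals and on the scaling. From NP to MT the log2FC was -0.11 in the fit of all animals, 0.02 after median-ratio scaling and 0.23 without NP replicate 1. From NP to LT it was 0.40 without NP replicate 1, with an adjusted P of 0.0737, and -0.12 without NP replicate 3.

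GJB6 is a connexin of stratified epithelia and skin. It had 192, 66.4 and 53.9 TPM in the NP animals, 188, 116 and 114 TPM in MT and 217, 266, 162 and 174 TPM in LT. NP replicate 1 lay inside the LT range, and the other NP animals lay below every MT and LT animal. The means were 104 ± 76.2 TPM (SD, n = 3), 140 ± 42.3 TPM (SD, n = 3) and 205 ± 47.2 TPM (SD, n = 4). Between NP and LT the log2FC was 1.18 (95% interval 0.30 to 2.05, adjusted P = 0.0282), and the exact permutation P was 0.114. The call was kept in 14 of 19 alternatives. It was lost in edgeR on the read counts (log2FC 1.20, adjusted P = 0.0559) and without NP replicate 2 (0.108), NP replicate 3 (0.118), LT replicate 1 (0.0551) or LT replicate 2 (0.0695). Without NP replicate 1 the log2FC from NP to LT was 1.73 (adjusted P = 0.00048), and over all alternatives the adjusted P ranged from this value to 0.118. Single steps did not pass, at 0.61 from NP to MT (adjusted P = 0.320) and 0.56 from MT to LT (adjusted P = 0.295). Without NP replicate 1 the first of them was 1.17 with an adjusted P of 0.0125.

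GJB5, a connexin of keratinizing and other stratified epithelia, was far less abundant than GJB6. The NP animals had 16.9, 11.3 and 6.54 TPM, the MT animals 14.1, 9.93 and 8.65 TPM and the LT animals 12.8, 13.5, 12.9 and 12.03 TPM. The spread between animals was wide in NP and narrow in LT, with SDs of 5.20, 2.86 and 0.587 TPM, and the stages overlapped. The log2FC was -0.02 from NP to MT (95% interval -0.64 to 0.60), 0.24 from MT to LT (95% interval -0.34 to 0.82) and 0.22 from NP to LT (95% interval -0.36 to 0.80). The sign of the first changed under median-ratio scaling, to 0.09, and without NP replicate 1, to 0.28 (adjusted P = 0.366). Without that animal the log2FC from NP to LT was 0.52 (adjusted P = 0.0658). The ratio of GJB6 to GJB5 was 5.87 to 11.3 in NP, 11.7 to 13.3 in MT and 12.6 to 19.8 in LT.

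**Figure D2:**
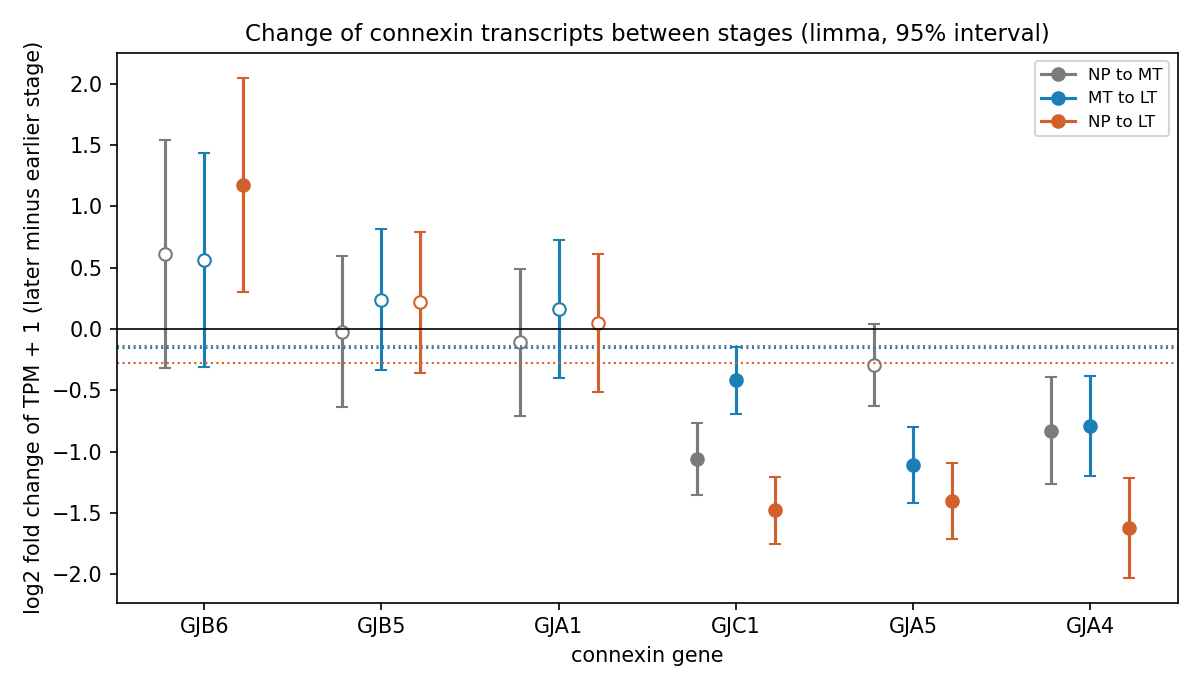
Log2FC of TPM + 1 between stages (y axis, later minus earlier stage) for the 6 connexin genes (x axis), with 95% intervals from limma. Filled points have an adjusted P under 0.05, open points do not, and each dotted line is the median of all 12645 tested genes in the comparison of its colour. The intervals of GJC1, GJA5 and GJA4 from NP to LT end below -1, whereas those of GJA1 and GJB5 include 0 in every comparison.

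In TPM, which is a level per transcript length, the order of the connexins was GJA1, GJB6 and GJC1 in every stage, with GJA1 at 72.0% to 76.5% of the summed connexin TPM by stage means. The ranges of GJA1 and GJB6 did not overlap in any stage, and those of GJB6 and GJC1 did not either. Below them the order changed with the stage. In NP the next were GJA5 at 18.6 TPM, GJA4 at 17.5 TPM and GJB5 at 11.6 TPM, and neighbours in this order overlapped. In LT GJB5, at 12.8 TPM, stood above GJA5 and GJA4 without overlap and overlapped with GJC1.

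The share of GJB5 and GJB6 in the summed TPM of the 6 connexins compares epithelial with muscle and vascular connexins within each animal, so that a shift common to all genes cancels. In NP it was 16.6%, 12.4% and 9.91%, in MT 21.3%, 17.6% and 20.1%, and in LT 23.9%, 29.0%, 22.8% and 23.9%. The lowest MT animal was above the highest NP animal, and the lowest LT animal above the highest MT animal. The means were 13.0 ± 3.40% (SD, n = 3), 19.6 ± 1.89% (SD, n = 3) and 24.9 ± 2.79% (SD, n = 4). Without NP replicate 1 the NP mean was 11.2%. No test was made on this share because it is a score over chosen genes. GJB6 carried it, and GJA1 made up most of the other side. The ratio of GJB6 to GJA1 alone was 0.115 to 0.199 in NP, 0.214 to 0.266 in MT and 0.286 to 0.406 in LT. NP replicate 1, which was high in both genes, had the highest ratio in NP but stayed below the MT animals. With GJA1 left out of the sum the share was 55.3 ± 14.98% (SD, n = 3) in NP, 76.3 ± 6.29% (SD, n = 3) in MT and 89.0 ± 1.58% (SD, n = 4) in LT, and the stages did not overlap either. NP replicate 1 had 71.9% in this sum, and the other NP animals had 42.9% and 51.0%. The summed TPM of GJA4, GJA5 and GJC1 fell meanwhile from 78.9 ± 3.66 TPM (SD, n = 3) to 44.5 ± 4.30 TPM (SD, n = 3) and 26.4 ± 3.77 TPM (SD, n = 4).

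**Figure D3:**
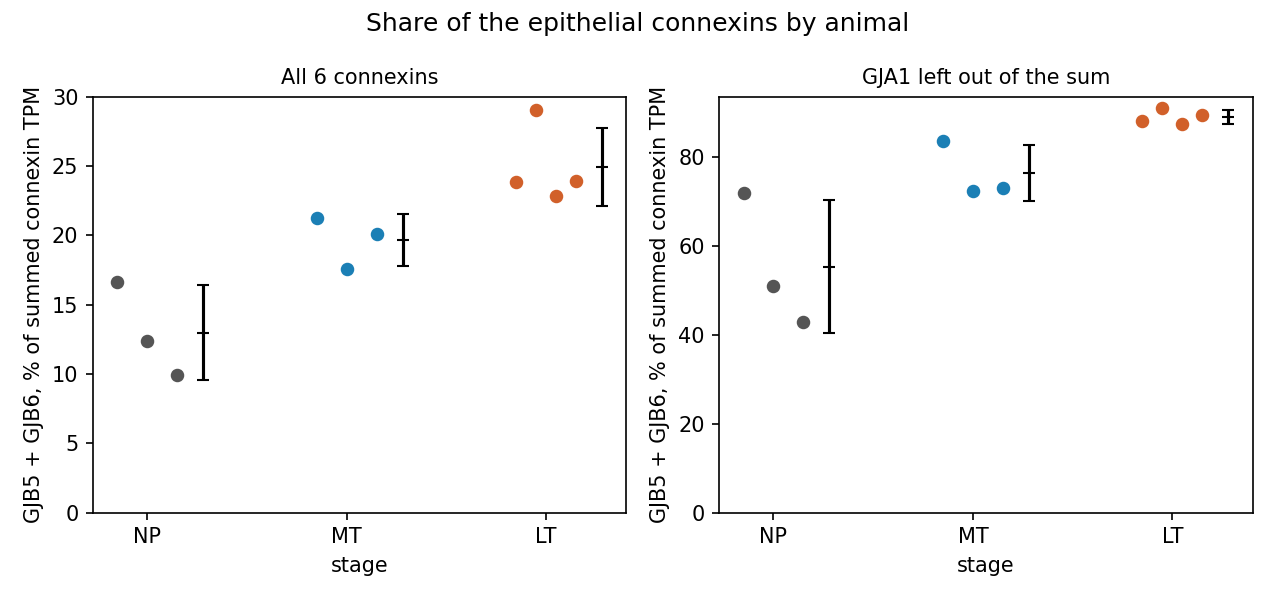
Share of GJB5 and GJB6 in the summed connexin TPM (y axis, percent, from 0) by stage (x axis), with all 6 connexins on the left and with GJA1 left out on the right. Points are animals and bars the mean with its SD. In both panels the 3 stages do not overlap, and on the left the LT animals lie between 22.8% and 29.0% and the NP animals between 9.91% and 16.6%.

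The levels of cell type markers were set beside those of the connexins. Counts of called markers stand against the shares of all tested genes. These were 12.2% lower and 6.27% higher from NP to MT. They were 22.7% and 6.73% from MT to LT, and 41.9% and 11.2% from NP to LT. Of 12 endothelial markers 10 have a row and were tested. From NP to MT 1 of them was called lower, from MT to LT 9 and from NP to LT all 10, and none was called higher. With median-ratio scaling 7 were called lower from MT to LT, and without NP replicate 1 3 were called lower from NP to MT. Their median log2FC values were -0.38, -0.86 and -1.23. Their summed TPM was 216 to 302 in NP, 161 to 233 in MT and 85.2 to 133 in LT. Per 1000 TPM of these markers, GJA5 was at 62.1 to 80.3 TPM in NP, between 64.8 and 84.9 TPM in MT and 53.9 to 66.7 TPM in LT, and the 3 ranges overlapped. Within LT, replicates 1 and 2 were higher than replicates 3 and 4 for GJA4, for GJA5 and for the endothelial sum. GJA4 per 1000 TPM of the markers was 53.4 to 81.5 TPM in NP, between 44.3 and 49.6 TPM in MT and 43.2 to 59.0 TPM in LT, so that NP and MT did not overlap. Of 6 pericyte markers 4 were tested. Their summed TPM was 383 to 440.3 in NP, 204 to 335 in MT and 142 to 340 in LT, and 1, PDGFRB, was called lower from MT to LT and from NP to LT. No pericyte marker was called from MT to LT after median-ratio scaling or in edgeR. What part these cells have in the levels of GJA4 and GJA5 was not tested.

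None of the smooth muscle markers was called lower in any comparison, unlike GJC1. All 11 of them were tested, and from NP to LT 1 was called in the fit of all animals, TAGLN, as higher (adjusted P = 0.0493). This count was 3 after median-ratio scaling and 7 without NP replicate 1, in each case all higher. From MT to LT it was SMTN, also higher (adjusted P = 0.0225), and 5 were called higher without NP replicate 1. None passed from NP to MT in the limma fits with and without this animal. Their summed TPM was 9471 to 32991 in NP, 13901 to 20783 in MT and 20505 to 41707 in LT. Per 1000 TPM of these markers GJC1 was at 1.41 to 4.43 TPM in NP, between 1.10 and 1.31 TPM in MT and 0.305 to 0.83 TPM in LT, and the stages did not overlap. The NP animals other than replicate 1 were at 3.32 and 4.43 TPM, and every one of them had a lower sum of the muscle markers than every LT animal. Set against the endothelial markers instead, GJC1 was at 132 to 216 TPM per 1000 in NP, 86.6 to 113 TPM in MT and 122 to 162 TPM in LT. GJA1 was at 70.5 to 90.0 TPM per 1000 TPM of the 6 fibroblast markers in NP, 70.0 to 95.1 TPM in MT and 74.5 to 95.1 TPM in LT, which overlap. Of these markers 1 was called lower and none higher from NP to MT, 1 higher and 1 lower from MT to LT, and none higher and 1 lower from NP to LT in the fit of all animals. After median-ratio scaling and in edgeR none was called from NP to MT, and 1 was higher and 1 lower from NP to LT. With NP replicate 1 left out, 2 were called lower from NP to MT, and 3 were higher and 1 lower from MT to LT.

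Markers of 3 kinds of epithelium were set beside GJB6. The summed TPM of the 8 squamous markers with a row was 1170.5 to 3951 in NP, 227 to 1526 in MT and 1685 to 3407 in LT. Of these 8 genes 3 were called lower from NP to MT and from NP to LT, IVL, SBSN and TMPRSS11D, and 1 was called higher from MT to LT, KRT14. Without NP replicate 1, 4 were called higher and 1 lower from MT to LT, and 2 higher and 3 lower from NP to LT. KRT14 made up most of the squamous sum in every animal, at 2825 of 3951 TPM in NP replicate 1 and 133 of 227 TPM in MT replicate 2. Ratios to this sum are thus mainly ratios to KRT14. Per 1000 TPM of the squamous markers, GJB6 was nearly even in NP, at 46.1 to 52.0 TPM with NP replicate 1 included, but at 123 to 513 TPM in MT and 51.2 to 129 TPM in LT. Markers of epithelium in general, 9 of 12 with a row, had a summed TPM of 1235 to 1606 in NP, 1785 to 2213 in MT and 1903 to 2143 in LT, with 3 called higher and 1 lower from NP to LT, or 5 higher and 0 lower after median-ratio scaling and in edgeR. Per 1000 TPM of them, GJB6 was at 43.7 to 119 TPM in NP, between 51.5 and 106 TPM in MT and 85.0 to 124 TPM in LT, and the 3 ranges overlapped. Without NP replicate 1 its NP range was 43.7 to 51.8 TPM, which overlaps with MT only. The sum of the secretory markers, 9 with a row, rose most in proportion. It was 138 to 439 TPM in NP, between 2112 and 5070.3 TPM in MT and 7429 to 9986 TPM in LT. Of the 7 tested, 6 were called higher from NP to LT. The log2FC of 1 was below 0, and in edgeR 6 were called higher and 1 lower. The part of these cells in the level of GJB6 was not tested. The 10 leukocyte markers with a row, of which S100A8 and S100A9 are the most abundant and are also made by squamous cells, summed to 4619 to 8540 TPM in NP and 15107 to 19427 TPM in LT, with 3 called higher and 1 lower from NP to LT. Without NP replicate 1 these counts were 3 and 4.

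**Figure D4:**
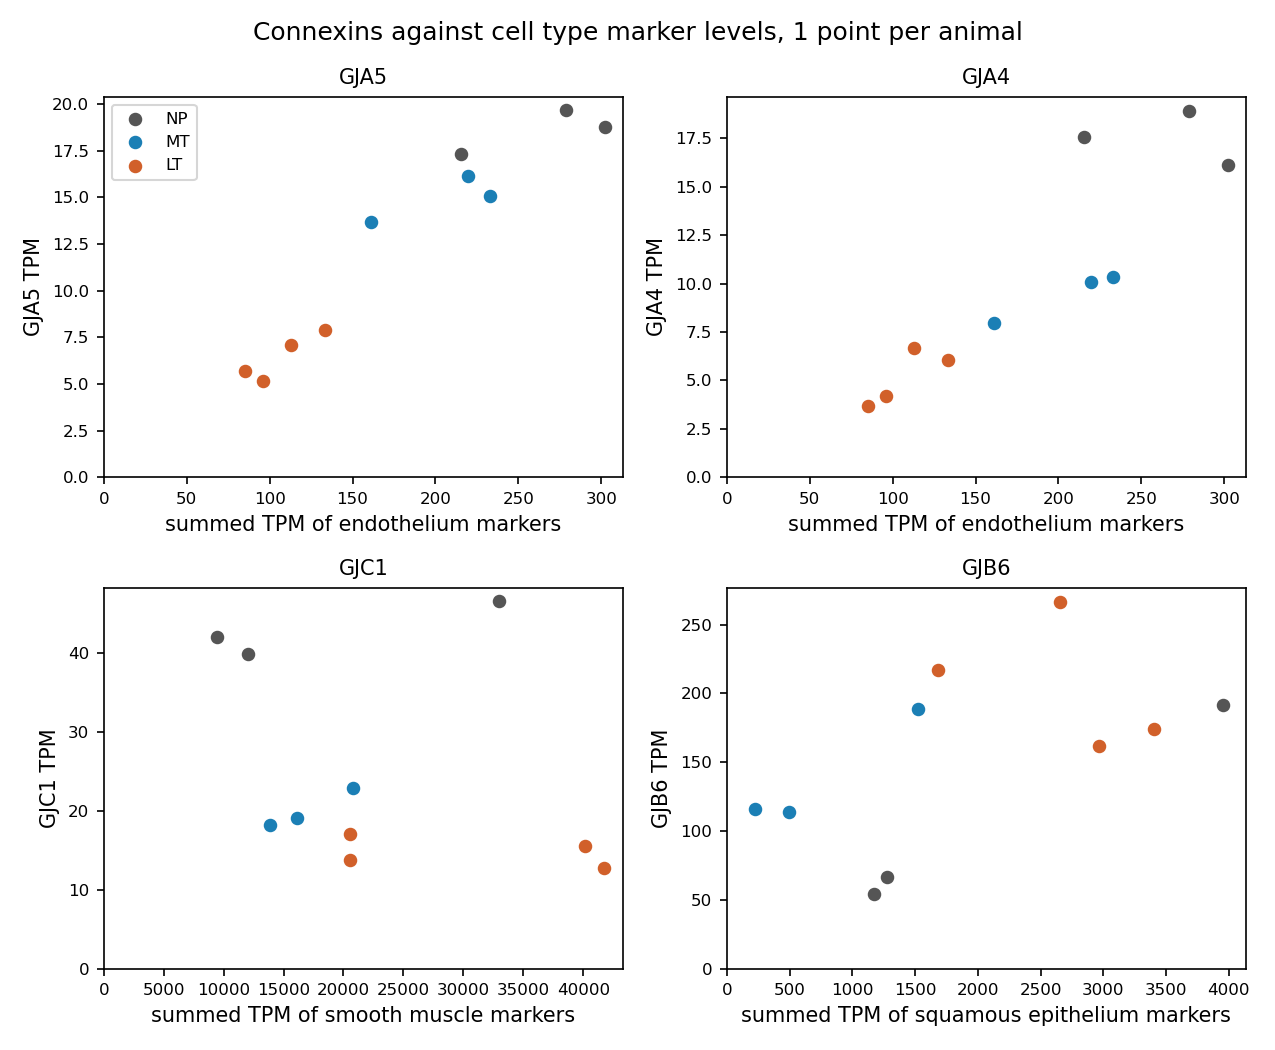
TPM of GJA5, GJA4, GJC1 and GJB6 (y axes, linear, from 0) against the summed TPM of endothelial, smooth muscle or squamous epithelium markers (x axes, linear, from 0), with 1 point per animal coloured by stage. GJA5 and GJA4 are lowest in the LT animals, which also have the lowest endothelial sums (85.2 to 133 TPM), GJC1 is high in NP at every level of the muscle markers, and NP replicate 1 is the rightmost NP point for the muscle and squamous markers, at 32991 and 3951 TPM.

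For each connexin, the genes with a gene name whose log2(TPM + 1) was most alike over the 10 animals were looked up among 11410 genes. For GJA5 these were UBE2O, OTUD7B and ZNF644, with Pearson correlations of 0.997, 0.993 and 0.992, and for GJA4 CCDC102A, CIC and KIAA1755, with 0.982, 0.979 and 0.978. The nearest to GJC1 were CMTM3 (0.989), RNF183 (0.986) and TMEM119 (0.984). GJA1 was most like COL1A2, a chain of type I collagen (0.916), PLOD2, an enzyme that modifies collagen lysines (0.902), and SLC35G1 (0.89). For GJB6 they were CCDC64B (0.956), B3GNT8 (0.951) and a gene listed only as Q8K4M6_CAVPO (0.948), and for GJB5 HSD17B14 (0.892), SLC35G1 (0.888) and NPNT (0.886). These are descriptions over animals that share their stage. Among the connexins themselves, GJA4 correlated with GJA5 (0.940) and with GJC1 (0.938), and GJA1 with GJB5 (0.838) and GJB6 (0.720), whereas GJB6 and GJA5 had a correlation of -0.66.

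Of the pannexins, which form membrane channels that do not dock between cells, PANX1 fell from 10.7 ± 0.692 TPM (SD, n = 3) in NP to 5.87 ± 1.29 TPM (SD, n = 3) in MT (log2FC -0.78, adjusted P = 0.00776) and was at 5.73 ± 0.425 TPM (SD, n = 4) in LT. PANX2 had means of 10.2, 9.63 and 14.4 TPM and was not called. The connexins GJA10, GJD2, GJD4 and GJE1 and the pannexin PANX3 are listed at 0 reads in every animal, and GJC3 stayed below the filter.

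Among 24 partners of gap junctions, proteins that anchor, phosphorylate, transport or degrade connexins, 21 have a row and 20 were tested. From NP to MT 4 were called higher and 2 lower, from MT to LT none higher and 3 lower, and from NP to LT 5 higher and 7 lower. Over all tested genes 6.27% were called higher and 12.2% lower from NP to MT. These shares were 6.73% and 22.7% from MT to LT, and 11.2% and 41.9% from NP to LT. With median-ratio scaling 8 partners were called higher and 3 lower from NP to LT, against 24.7% and 25.0% of all genes. The balance of this list thus turns with the scaling. TJP1, the scaffold that binds the tail of GJA1, was lower at each later stage, at 83.6 ± 6.23 TPM (SD, n = 3), 68.2 ± 4.77 TPM (SD, n = 3) and 52.9 ± 2.55 TPM (SD, n = 4), with a log2FC of -0.65 from NP to LT (adjusted P = 0.000315). The 3 most abundant partners were CTNNB1, EZR and CDH1. EZR, which links membrane proteins to actin, rose from 192 ± 28.9 TPM (SD, n = 3) in NP to 602 ± 157 TPM (SD, n = 4) in LT (log2FC 1.62, adjusted P = 0.000322). CTNNB1, at 438 TPM in LT, and CDH1, at 179 TPM, were not called in any comparison.

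Of 13 genes known to regulate transcription of GJA1, 12 have a row and 10 were tested. From NP to MT 3 were called higher and 2 lower, from MT to LT 2 and 2, and from NP to LT 3 and 4, the last becoming 4 and 3 with median-ratio scaling. Among all tested genes 11.2% were called higher and 41.9% lower from NP to LT, or 24.7% and 25.0% with median-ratio scaling. The AP-1 subunit FOS averaged 31.0 TPM (SD 6.11, n = 3) in NP and 45.5 TPM (SD 15.2, n = 3) in MT. In LT it had 132 TPM (SD 40.2, n = 4), with a log2FC of 1.51 from MT (adjusted P = 0.00667). JUNB, another subunit, had means of 67.9, 38.4 and 75.9 TPM and was called lower from NP to MT (adjusted P = 0.00801) and higher from MT to LT (adjusted P = 0.00315). FOSL2 and JUND were called higher from NP to MT, with log2FC values of 0.89 and 0.61. SP1, a factor of many promoters, fell in both steps, from 53.6 to 40.1 and 23.2 TPM, and the repressors ZEB1 and ZEB2 were lower in LT than in NP, by log2FC values of -0.64 each. The steroid receptors ESR1 and PGR are part of this list too. ESR1 was called lower from NP to LT, and PGR was called higher from NP to MT and lower from MT to LT. Beside these, the log2FC values of GJA1 were -0.11 from NP to MT and 0.16 from MT to LT, neither of which passed the test.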

How the data were processed

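RNA of 10 cervices was sequenced as strand-specific single reads of poly(A) RNA. The authors aligned the reads with TopHat2 to cavPor3.69 and counted them per Ensembl gene with HTSeq 0.5.4p1. They deposited raw read counts and the TPM values derived from them, and both were used as deposited. The strand setting of the counting is not given in the sources used here. Replicates are separate animals and differed by more than sampling noise.

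TPM was the unit because the study's methods name it. The comparisons used limma 3.58.1 (trend) in R 4.3.3 on log2(TPM + 1), with stage as the only term, over the 12645 genes whose mean reached 3 TPM in 1 stage or more. Alternatives were edgeR 4.0.16 (quasi-likelihood) and DESeq2 1.42.0 on the counts, square-root TPM, a pseudocount of 0.1, other filters, median-ratio scaling, a fit of 2 stages only, a replicate block and each animal left out in turn. Marker counts without NP replicate 1 were added after seeing the data. Depth per animal, in counted reads, limits the low genes.

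The members, gene lists and tests were chosen with earlier results of these data known. Names were matched without regard to case. Named are all members, the 3 genes most correlated with each, and genes of the lists: the 3 most abundant and any regulator that was called. TJP1, PDGFRB, SMTN, TAGLN, KRT14, IVL, SBSN and TMPRSS11D were named after their values were seen. No sequences are shown, and some genes of the lists are not reported here.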

Additional observations from a re-analysis of the deposited data

How the results depend on the processing

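Over 342 combinations of a connexin, a comparison and an alternative setting, 310 kept their direction and side of the threshold, 18 were no longer called, 1 became called and 13 changed sign, all 13 in GJA1 or GJB5, which were not called. With each animal left out in turn, GJA1 ranged from -0.29 to 0.23 from NP to MT, from -0.002 to 0.34 from MT to LT and from -0.12 to 0.40 from NP to LT, and GJB5 from -0.35 to 0.28 from NP to MT and from -0.11 to 0.52 from NP to LT (log2). Median-ratio scaling gave 0.016 for GJA1 and 0.089 for GJB5 from NP to MT.

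The number of connexins called lay between 1 and 3 with an animal left out from NP to MT and from MT to LT, and between 3 and 4 from NP to LT. The replicate block, which fits the replicate numbers of the labels as a term, left 1 connexin called from MT to LT, GJA5, and changed no call from NP to MT or from NP to LT. LT replicate 4 has no animal of the same number, so this fit takes it out of the comparison as well, and without it and with no block 2 connexins were called from MT to LT. The deviations of same-numbered animals correlated between -0.287 and 0.254, and those of different-numbered animals between -0.271 and 0.311. With so few animals, this check cannot decide whether the numbers pair them. Over all genes, 1693 were called from MT to LT with the block, 2584 without LT replicate 4 alone and 3723 in the fit of all animals.

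The epithelial share was 9.35%, 14.4% and 18.6% in NP, MT and LT on read counts, and 55.3%, 76.3% and 89.0% without GJA1. Leaving out animals gave 11.2% to 14.5%, 18.8% to 20.7% and 23.6% to 25.6%.

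The split of all calls into higher and lower depended on the scaling, and the cause was not tested. From NP to MT it was 793 and 1549 in the TPM fit and 1313 and 979 with median-ratio scaling, from MT to LT 851 and 2872 against 1776 and 1939, and from NP to LT 1417 and 5301 against 3128 and 3157. From NP to MT 1113 genes were called in a fit of these 2 stages, 4174 without NP replicate 1, 1450 without NP replicate 2 and 1100 without MT replicate 3, against 2342. From MT to LT they were 1946 without MT replicate 2 and 2403 without LT replicate 3.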
